A study of Mus musculus with 6 samples.

Results

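Transcripts of 9 genes linked to exchange between cells, to ATP release or to the sensing of force were followed in mouse chondrocytes, the cells of cartilage. The genes are the gap junction gene Gja1, the pannexins Panx1 and Panx3, the mechanosensitive channels Piezo1, Piezo2 and Trpv4, the nanotube-linked genes Tnfaip2 and Myo10, and the ectoenzyme gene Cd38. They were picked by name from a table of 28812 genes, each name matched 1 row, and all 9 passed the filter on low counts. The chondrocytes are labelled wild type and osteoarthritic (OA), and all of them had been given interleukin-1 beta (IL-1β), an inflammatory cytokine. In 3 libraries the cells also received mitochondria, which the series title ascribes to osteocytes, and in 3 they received vehicle. Whether the OA label means more than the IL-1β treatment, the age and sex of the mice, and the number of animals or cultures behind a group were not given in the sources used here, so p-values measure only the spread between these libraries. No chondrocytes without IL-1β were analysed here.

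Connexins assemble into channels that join the cytoplasm of neighbouring cells, and Gja1 encodes the main connexin of cartilage and bone cells. Pannexins form large membrane channels that release ATP rather than joining cells. Piezo1, Piezo2 and Trpv4 encode cation channels through which chondrocytes admit calcium when they are compressed, stretched or swollen. Tunnelling nanotubes are thin, actin-based bridges between cells through which organelles, mitochondria among them, have been seen to pass. Tnfaip2 encodes M-Sec, which starts such protrusions together with the small GTPase RalA and the exocyst, and Myo10 encodes a myosin that travels to filopodium tips. Cd38 encodes an enzyme that consumes NAD and makes the calcium-mobilising messenger cyclic ADP-ribose, and it has been linked to the handing over of mitochondria between cells.

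Chondrocytes given mitochondria had more Gja1 and Panx1 transcript and less Piezo2 transcript than those given vehicle. Panx1 was 2.36-fold and Gja1 1.57-fold the vehicle level, and Piezo2 was 0.55-fold. The other 6 genes did not pass the test. Panx3 had the largest estimate of the 9, 0.311-fold, with a wide error. Over all 17290 genes tested with edgeR, 14.8% were called at an adjusted p under 0.05, 6.36% higher and 8.46% lower, and the median log2 fold change was 0.00. Of the 9 genes, 3 were called, 2 higher and 1 lower, and their median log2 fold change was -0.10. All values of one group lay apart from those of the other in 4 of the 9 genes (Gja1, Panx1, Panx3 and Piezo2), against 40.7% of all genes tested, which is a share near the background.

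The promoters of Gja1 and Panx1 are shown because these were the 2 genes that rose. Each is given 5′ to 3′ on its own strand as the 250 bases before the RefSeq start of the gene, on GRCm38, with capitals marking matches to the motifs named below. Gja1 is at chr10:56377050-56377299 on the plus strand and Panx1 at chr9:15045479-15045728 on the minus strand.
Gja1: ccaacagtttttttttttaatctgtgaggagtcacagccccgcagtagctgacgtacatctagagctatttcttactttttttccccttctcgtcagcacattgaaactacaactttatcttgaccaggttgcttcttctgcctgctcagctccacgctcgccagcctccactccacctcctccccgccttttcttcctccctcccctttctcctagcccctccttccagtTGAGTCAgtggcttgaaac
Panx1: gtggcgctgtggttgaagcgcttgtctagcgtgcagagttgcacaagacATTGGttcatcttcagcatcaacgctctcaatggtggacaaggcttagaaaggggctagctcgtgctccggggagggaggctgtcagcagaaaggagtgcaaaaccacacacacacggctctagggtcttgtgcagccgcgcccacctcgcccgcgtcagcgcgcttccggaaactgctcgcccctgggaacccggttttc

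Both strands were searched for 7 motifs, and matches were allowed to overlap. TGANTCA, the AP-1 motif, had the single match in the Gja1 promoter, at bases -19 to -13 before the start. It was found in 6.75% of the 32851 promoters in the table. CCAAT, the CCAAT box, had the single match in the Panx1 promoter, on the opposite strand at bases -201 to -197. It was found in 33.8% of all promoters and matched in Tnfaip2 and Myo10 too. GGGCGG, the GC box, was found in 32.7% of all promoters and matched in Piezo1, Trpv4, Tnfaip2 and Myo10. TATAAA, the TATA box, was found in 12.4% and matched at bases -24 to -19 of Piezo1 and in 1 of the 2 Myo10 promoters. TGACNNNGC, a core of the antioxidant response element, was found in 10.2% and matched in Tnfaip2, where it overlaps a GC box. TGACGTCA, the cyclic AMP response element, was found in 1.55% and the kappa B consensus in 3.90%, and neither matched in these genes. No match was found in Cd38. A promoter was found in the table for 7 of the 9 genes. Panx3 and Piezo2 are named only. A match is a description of letters and not a site shown to be used.

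The libraries were of even depth, with 63547854 to 66293786 deposited counts each, and low values piled up at 4 counts, so 1 sequenced fragment is taken as about 4 counts and 1 CPM (counts scaled for library size) as about 16 fragments. In a principal component analysis, component 1 held 59.7% of the variance. Vehicle replicates 1, 2 and 3 scored -20.6, -38.2 and -38.3 there, and mitochondria replicates 1, 2 and 3 scored 54.7, 18.97 and 23.4. Vehicle replicate 1 was thus the vehicle library nearest the mitochondria group, though nearer to its own group. Mitochondria replicate 1 lay farthest from the rest of its group. The chondrocyte label was checked on 16 markers, all of which passed the filter, with a median of 7.71 FPKM (fragments scaled for transcript length and library size). Their summed level was 2044 to 2238 CPM in mitochondria libraries and 2476 to 2873 CPM in vehicle libraries, and 5 of the 16 were called, Sox9 and Acan higher and Col11a1, Hapln1 and Sox6 lower. The 8 synovial fibroblast markers summed to 2935 to 3181 CPM in mitochondria libraries and 3339 to 3800 CPM in vehicle libraries, with Cd34 called higher and Pdgfra, Thy1 and Dpp4 lower. Over all genes tested 14.8% were called. Most of the chondrocyte sum was Col2a1, not called, and Col11a1 (320 CPM with mitochondria, 614 CPM with vehicle). Most of the synovial sum was Col3a1, not called (2035 CPM with mitochondria, 2448 CPM with vehicle), and Prg4 is in both lists. The part of these marker shifts in the results for the 9 genes was not tested. Of 7 osteocyte markers with a row, 3 were tested and none was called, and the other 4 (Sost, Dmp1, Phex and Dkk1) were under 0.1 FPKM. Macrophage markers summed to 76.1 to 90.4 CPM in mitochondria libraries and 73.8 to 92.6 CPM in vehicle libraries, and none of 13 was called. Bulk RNA cannot tell fewer cells of a type from less RNA per cell.

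The 9 genes differed widely in level. On the FPKM scale, which allows genes of different length to be compared, Gja1 came first with a mean of 95.2 FPKM over the 6 libraries, above 98.5% of all rows. Piezo1 followed at 28.7 FPKM, with a lowest library of 24.7 FPKM. Tnfaip2 (21.2 FPKM, 17.3 to 23.1) and Myo10 (20.2 FPKM, 18.3 to 23.2) came next and could not be told apart by their spread, while both stayed under every value of Piezo1. Panx1 averaged 4.19 FPKM (2.02 to 6.66) and Trpv4 3.36 FPKM (2.90 to 3.90), and their ranges overlapped. Panx3 (0.396 FPKM), Piezo2 (0.322 FPKM) and Cd38 (0.196 FPKM) were the lowest of the 9, and the range of Cd38 overlapped both others. They were above 52.3%, 50.7% and 47.0% of all rows.

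**Figure D1:**
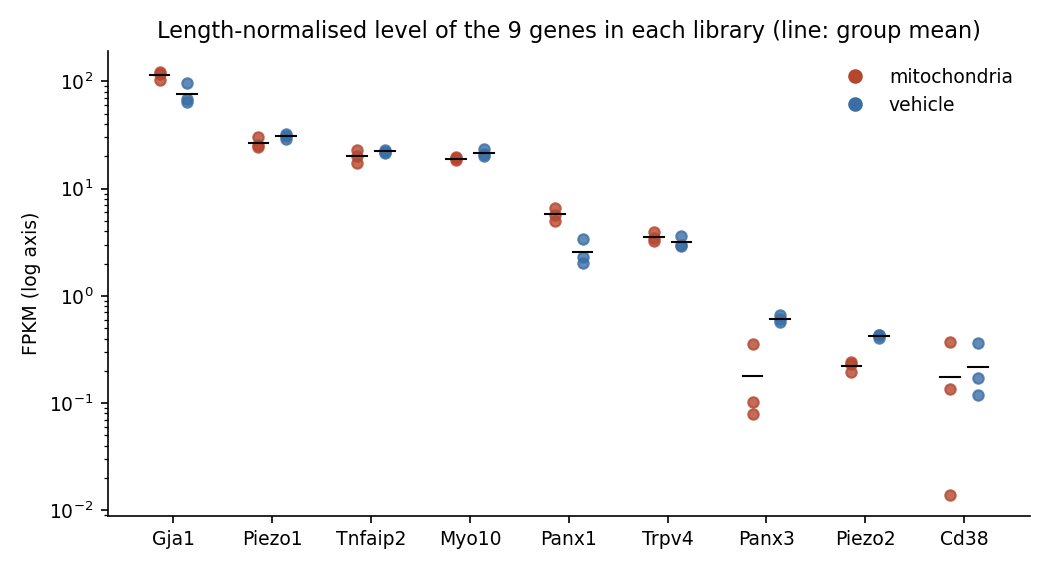
FPKM on a log axis for the 9 genes in order of mean level, with mitochondria libraries in red to the left of vehicle libraries in blue and a line at each group mean (n = 3 per group). Gja1 lies above all others in every library, and Panx1 stands above Trpv4 in the mitochondria libraries only.

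The order changed between the groups at 2 places. Panx1 was at 5.04 to 6.66 FPKM with mitochondria, above Trpv4 at 3.25 to 3.90 FPKM, whereas with vehicle Panx1 was at 2.02 to 3.42 FPKM and Trpv4 at 2.90 to 3.64 FPKM, ranges that overlap. Panx3 was at 0.0794 to 0.357 FPKM with mitochondria, on both sides of Piezo2 at 0.196 to 0.241 FPKM. With vehicle Panx3 was at 0.574 to 0.658 FPKM, above Piezo2 at 0.402 to 0.436 FPKM in all 3 libraries.

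**Figure D2:**
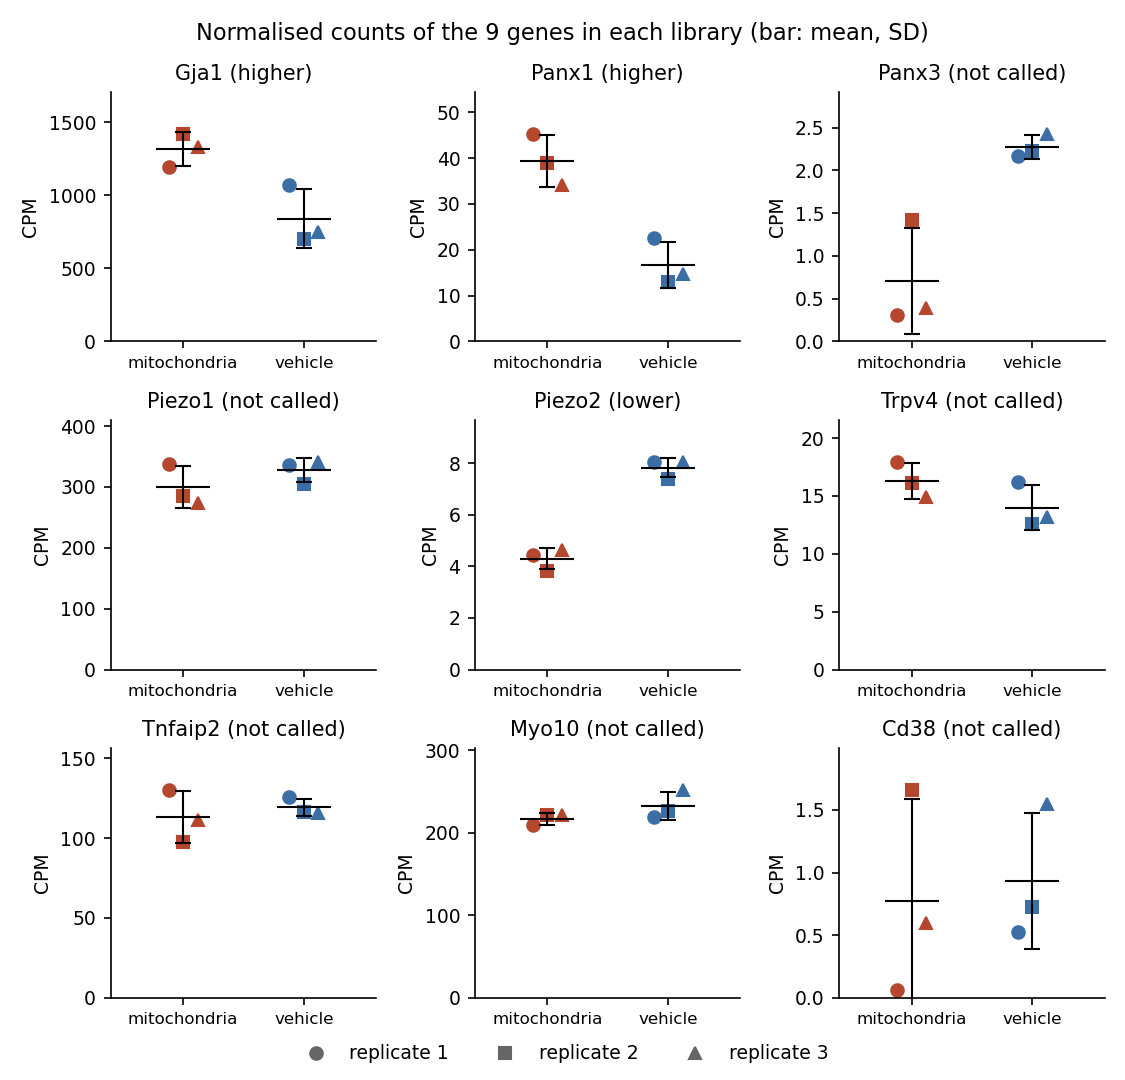
CPM of each gene in each of the 6 libraries, mitochondria to the left of vehicle, with symbols for the replicate numbers and bars for the mean and SD (n = 3; the SD bar of Cd38 runs under 0 and is cut there). The groups do not overlap in Gja1, Panx1, Panx3 and Piezo2, and they overlap in the other 5 genes.

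Gja1 (ENSMUSG00000050953, chromosome 10, 56377330 to 56402513 on GRCm38, plus strand) was the most abundant of the genes and rose with mitochondria. Its level was 1198, 1424 and 1335 CPM in mitochondria replicates 1, 2 and 3, against 1073, 703 and 749 CPM in vehicle replicates 1, 2 and 3. Every mitochondria library was above every vehicle library, and vehicle replicate 1 lay close to the lowest of them. The means were 1319 ± 114 and 842 ± 202 CPM (SD, n = 3 each), a log2 fold change of 0.65 ± 0.16 (SE; adjusted p = 0.028, edgeR quasi-likelihood test with Benjamini-Hochberg adjustment). The estimate was 0.53 to 0.86 with any 1 library left out, but the call did not hold in every such fit. It was lost without vehicle replicate 2 (0.53, adjusted p = 0.11), vehicle replicate 3 (0.57, adjusted p = 0.12), mitochondria replicate 2 (0.59, adjusted p = 0.065) or mitochondria replicate 3 (0.64, adjusted p = 0.082). Gja1 transcripts are low in G and C (42.2%), and the log2 fold change was 1.02 (adjusted p = 0.0038, edgeR) once a GC trend was removed from each library.

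Gja1 made up most of the connexin RNA in every library. Its share of the summed FPKM of all connexins in the table was 94.6%, 95.04% and 94.3% with mitochondria and 94.7%, 92.2% and 94.5% with vehicle, so the shares overlapped. The sum itself was 109, 129 and 123 FPKM with mitochondria against 101, 69.8 and 72.2 FPKM with vehicle. Pdpn, a membrane glycoprotein gene listed among the osteocyte markers and also expressed by fibroblasts, was at 259 CPM with mitochondria and 181 CPM with vehicle (log2 0.52 ± 0.16, adjusted p = 0.064, edgeR). It makes up nearly all of the osteocyte marker sum, which was 245 to 271 CPM with mitochondria and 155 to 236 CPM with vehicle, and its part in the Gja1 result was not tested. The 4 osteocyte markers under 0.1 FPKM were too low to be tested.

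Of 19 other connexins listed, 14 were in the table and 8 were tested, and none was called in either direction. Their median log2 fold change was 1.12, against 0.00 for all genes tested, and 6 of 8 estimates were above 0. Most are rare transcripts here. Gja4 passed the count filter through the mitochondria libraries (0.541 CPM with mitochondria, 0.0512 CPM with vehicle), and its estimate of 3.36 enters this median. Gjc1, a connexin of the heart and of vessels, was the most abundant at 2.68 FPKM and had 14.3 ± 1.21 CPM with mitochondria and 15.2 ± 0.836 CPM with vehicle (log2 -0.08 ± 0.13, adjusted p = 0.71, edgeR). Gjb2, a connexin of skin and inner ear, had 2.23 ± 0.526 CPM with mitochondria and 1.08 ± 0.766 CPM with vehicle (log2 1.05 ± 0.52, adjusted p = 0.20, edgeR). The median of the list depended on the treatment of low counts. It was 0.81 in edgeR with a minimum count of 40 and 0.79 with counts divided by 4. In limma it was 0.40 with no filter and 0.35 with a pseudocount of 1 on the FPKM scale. Under the other scalings in edgeR it was 1.06 to 1.18.

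Panx1 (ENSMUSG00000031934, chromosome 9, 15002128 to 15045478, minus strand), the widely expressed pannexin, had the largest rise of the 9 genes. It stood at 45.4, 38.9 and 34.0 CPM in mitochondria replicates 1, 2 and 3, against 22.5, 12.99 and 14.7 CPM in vehicle replicates 1, 2 and 3. The groups were well apart, and vehicle replicate 1 was again the vehicle library nearest the other group. The means were 39.4 ± 5.68 CPM with mitochondria and 16.7 ± 5.05 CPM with vehicle (SD, n = 3 each; log2 1.24 ± 0.21, adjusted p = 0.0097, edgeR). The estimate was 1.08 to 1.51 with any 1 library left out. The call was lost only without vehicle replicate 3 among these 6 fits (1.15, adjusted p = 0.058).

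Panx3 (ENSMUSG00000011118, chromosome 9, 37659902 to 37669235, minus strand) encodes the pannexin of prehypertrophic chondrocytes and osteoblasts. Deposited counts were 20, 88 and 25 in mitochondria replicates 1, 2 and 3, which is about 5, 22 and 6.25 fragments. They were 141, 150 and 162 in vehicle replicates 1, 2 and 3, or about 35.25, 37.5 and 40.5 fragments. All vehicle libraries were close together, while mitochondria replicate 2 stood well above the rest of its group. On the CPM scale the means were 0.708 ± 0.617 with mitochondria and 2.27 ± 0.138 with vehicle, and the log2 fold change was -1.68 ± 0.55 (SE; adjusted p = 0.075, edgeR). Without mitochondria replicate 2 it was -2.68 (adjusted p = 0.011, edgeR). The test passed in DESeq2 (-1.70, adjusted p = 0.014) and with counts divided by 4 (-1.69, adjusted p = 0.044, edgeR). Among 7 osteoblast markers, the bone matrix protein gene Ibsp was called lower (0.195 CPM with mitochondria, 0.971 CPM with vehicle; log2 -2.31 ± 0.52, adjusted p = 0.022, edgeR), and the sum of the list was 5101 to 6178 CPM with mitochondria and 5035 to 5917 CPM with vehicle, nearly all of it Col1a1. Their part in the Panx3 values was not tested.

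The ratio of the pannexins lay apart between the groups, though Panx3 itself was not called. Panx1 FPKM was 83.8, 15.9 and 49.2 times that of Panx3 in mitochondria replicates 1, 2 and 3, against 5.97, 3.34 and 3.47 times in vehicle replicates 1, 2 and 3. The lowest mitochondria library was thus above the highest vehicle library. The mean log2 ratio was 5.33 ± 1.22 with mitochondria and 2.04 ± 0.47 with vehicle (SD, n = 3 each), a difference of 3.30 (exact two-sided permutation p = 0.10, the smallest that 3 against 3 allows). Panx1 FPKM was higher and Panx3 FPKM lower in every mitochondria library than in any vehicle library. The ratio therefore had to separate, and this p could take no other value. With 1 library left out the difference was 2.77 to 3.97. With a pseudocount added to each FPKM, an alternative chosen after seeing the data, it was 2.65 at 0.1 and 1.40 at 1.

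**Figure D3:**
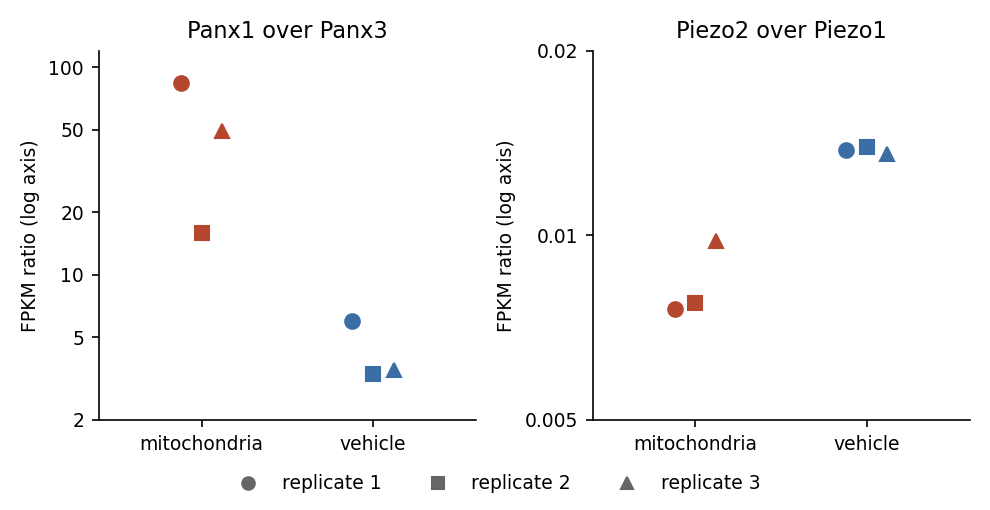
Ratio of FPKM between paralogs in each library on log axes, Panx1 over Panx3 on the left panel and Piezo2 over Piezo1 on the right, with mitochondria to the left of vehicle in each. The mitochondria libraries lie above the vehicle libraries for the pannexins and below them for the Piezo channels.

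Around the pannexins, 32 genes of ATP release and purinergic signalling were listed and 24 tested, of which 2 rose and 1 fell (median log2 fold change -0.08). The share called was 12.5%, against 14.8% of all genes tested. Vdac1, the porin of the outer mitochondrial membrane, rose to 1110 ± 81.4 CPM with mitochondria, against 703 ± 118 CPM with vehicle (log2 0.66 ± 0.12, adjusted p = 0.013, edgeR). Nt5e, the ectonucleotidase that turns AMP into adenosine, rose to 158 ± 26.3 CPM, against 94.4 ± 15.2 CPM with vehicle (0.74 ± 0.15, adjusted p = 0.017). Among the 6 fits with 1 library left out, the call of Vdac1 was lost in 2 and that of Nt5e in 3. P2ry1, a receptor for ADP, was the 1 gene called lower, at 0.0632 ± 0.00120 CPM with mitochondria, against 0.566 ± 0.237 CPM with vehicle. That is about 1 fragment per mitochondria library, so the small SD there is no measure of precision. P2ry1 passed the count filter through the vehicle libraries. Its call was lost 5 of 6 times when single libraries were dropped, so the fall is weakly based. None of the 5 P2X receptors tested, the ATP-gated channels, was called (log2 -0.62 to 0.02), nor any of 3 adenosine receptors. Slc29a1, a nucleoside transporter, was at 97.6 ± 4.15 CPM with mitochondria and 80.5 ± 2.46 CPM with vehicle (0.28 ± 0.09, adjusted p = 0.061, edgeR).

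Genes for the proteins that hold gap junctions in place or remove them were called in both directions. Of 16 tested, 1 rose and 2 fell (median log2 fold change 0.02), a share of 18.8% called, against 14.8% of all genes tested. Tjp1, the scaffold protein that binds the tail of the Gja1 protein, fell to 152 ± 29.6 CPM with mitochondria, against 221 ± 5.65 CPM with vehicle (log2 -0.54 ± 0.14, adjusted p = 0.033, edgeR). Wwp1, a ubiquitin ligase, fell to 18.2 ± 6.21 CPM, against 39.7 ± 2.43 CPM with vehicle (-1.12 ± 0.24, adjusted p = 0.019). Hgs, which sorts ubiquitinated membrane proteins to lysosomes, rose to 120 ± 13.4 CPM, against 88.8 ± 8.97 CPM with vehicle (0.43 ± 0.12, adjusted p = 0.040). With the GC trend removed Hgs did not pass (0.24, adjusted p = 0.081, edgeR), while Tjp1 (-0.45) and Wwp1 (-0.60) did. With 1 library left out, the calls of Hgs and Tjp1 were each lost in 4 of 6 fits and that of Wwp1 in 2. Nedd4, a ubiquitin ligase that acts on connexins, was at 1091 ± 249 CPM with mitochondria and 1554 ± 91.3 CPM with vehicle (-0.51 ± 0.16, adjusted p = 0.061), and Ctnnb1, the most abundant of the list, changed by 0.08 ± 0.07 (adjusted p = 0.50).

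Piezo2 (ENSMUSG00000041482, chromosome 18, 63010213 to 63387183, minus strand), best known as the touch channel of sensory endings, was a rare transcript and fell with mitochondria. It measured 4.44, 3.84 and 4.64 CPM in mitochondria replicates 1, 2 and 3, against 8.03, 7.39 and 8.06 CPM in vehicle replicates 1, 2 and 3. Spread within each group was small, and the groups were far from overlapping. The means were 4.30 ± 0.419 CPM with mitochondria and 7.82 ± 0.377 CPM with vehicle (SD, n = 3 each; log2 -0.86 ± 0.17, adjusted p = 0.014, edgeR). With 1 library left out the estimate was -0.92 to -0.79. The call was lost without vehicle replicate 2 (-0.90, adjusted p = 0.061) or vehicle replicate 3 (-0.84, adjusted p = 0.074). It was also lost when FPKM were tested with limma, where the estimate was -0.70 (adjusted p = 0.10) at a pseudocount of 0.1 and -0.22 (adjusted p = 0.081) at a pseudocount of 1. Of 7 neuron and Schwann cell markers in the table, S100b, which chondrocytes express too, was called higher (20.6 CPM with mitochondria, 10.9 CPM with vehicle), and Rbfox3, Sox10 and Syt1 were under 0.1 FPKM. The list summed to 34.4 to 41.8 CPM with mitochondria and 24.96 to 28.6 CPM with vehicle, most of it S100b and Tubb3, and its part in the Piezo2 result was not tested.

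Piezo1 (ENSMUSG00000014444, chromosome 8, 122481698 to 122551329, minus strand), the abundant member of the pair, did not pass the test. Values were 339, 285 and 274 CPM with mitochondria and 336, 305 and 341 CPM with vehicle, so the groups overlapped. The log2 fold change was -0.13 ± 0.10 (adjusted p = 0.43, edgeR), with a 95% confidence interval of -0.36 to 0.10. Its transcripts are rich in G and C (59.0%), and with the GC trend removed Piezo1 was called lower (-0.33, adjusted p = 0.012, edgeR). Ctu2 overlaps Piezo1 on the other strand at 2.32 FPKM, and whether counting used the strand was not given in the sources used here.

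Piezo2 FPKM was 0.00759, 0.00776 and 0.00977 times that of Piezo1 with mitochondria, against 0.0138, 0.0139 and 0.0136 times with vehicle. The vehicle ratios were almost identical and all above the mitochondria ratios. The mean log2 ratio was -6.91 ± 0.20 with mitochondria and -6.18 ± 0.02 with vehicle (SD, n = 3 each), a difference of -0.73 (exact two-sided permutation p = 0.10, the smallest that 3 against 3 allows). Piezo2 FPKM lay further apart between the groups than Piezo1 FPKM varied over all libraries (24.7 to 32.1 FPKM). This ratio too had to separate, and its p could take no other value. With the same pseudocounts the difference was -0.49 at 0.1 and -0.02 at 1, so its size depends on how the low Piezo2 values are treated.

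Trpv4 (ENSMUSG00000014158, chromosome 5, 114622152 to 114658421, minus strand) encodes the channel by which chondrocytes respond to osmotic and moderate mechanical load. It was at 18.0, 16.1 and 14.9 CPM in mitochondria libraries and 16.2, 12.6 and 13.1 CPM in vehicle libraries, with overlapping groups. The log2 fold change of 0.22 ± 0.15 did not pass (adjusted p = 0.33, edgeR), and its 95% confidence interval was -0.11 to 0.55. None of the 20 alternatives gave a call.

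Among 29 other mechanosensitive or stretch-linked channel genes tested, 2 rose and 2 fell, with a median log2 fold change of 0.10. The share called was 13.8%, against 14.8% of all genes tested. Trpm7, a cation channel fused to a kinase, fell to 34.9 ± 12.2 CPM with mitochondria, against 96.5 ± 9.14 CPM with vehicle (log2 -1.47 ± 0.23, adjusted p = 0.0079, edgeR), and this call held in all 6 fits with 1 library left out. Lrrc8b, a subunit of the volume-regulated anion channel, fell to 8.63 ± 2.88 CPM, against 15.4 ± 0.0727 CPM with vehicle (-0.83 ± 0.23, adjusted p = 0.046), and the other 4 subunits tested were not called. The rare transcripts Tmc7 and Pkd1l1 rose, Tmc7 to 3.24 ± 0.249 CPM, against 1.18 ± 0.139 CPM with vehicle, and the polycystin relative Pkd1l1 to 3.797 ± 0.555 CPM, against 1.23 ± 0.599 CPM with vehicle (edgeR adjusted p = 0.0095 and 0.021). Unlike that of Trpm7, the calls of Lrrc8b, Pkd1l1 and Tmc7 were lost in 4, 3 and 1 of these 6 fits. The most abundant of the list were not called: Tmem63a, a channel opened by membrane tension, changed by 0.24 ± 0.11 (adjusted p = 0.18), and Pkd2, the polycystin of primary cilia, by -0.24 ± 0.09 (adjusted p = 0.10).

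Genes tied to mechanical load or to the transcription regulator YAP were called in both directions, 3 higher and 2 lower of 14 tested (median log2 fold change -0.18). The list holds the YAP gene Yap1 and its relative Wwtr1 beside targets. The share called was 35.7%, against 14.8% of all genes tested. The matricellular genes Ccn1 and Ccn2 rose, Ccn1 to 600 ± 52.8 CPM with mitochondria, against 464 ± 19.9 CPM with vehicle, and Ccn2 to 284 ± 16.6 CPM, against 204 ± 3.36 CPM with vehicle (edgeR adjusted p = 0.027 and 0.0097). Fosl1, a subunit of AP-1, rose to 76.7 ± 7.79 CPM, against 41.4 ± 13.4 CPM with vehicle (log2 0.89 ± 0.20, adjusted p = 0.024). Myl9, a myosin light chain of contractile cells, fell to 16.4 ± 2.01 CPM, against 45.8 ± 10.4 CPM with vehicle (-1.48 ± 0.18, adjusted p = 0.0044), and the YAP-inhibiting kinase Lats2 fell to 106 ± 7.12 CPM, against 153 ± 8.94 CPM with vehicle (-0.53 ± 0.09, adjusted p = 0.011).

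**Figure D4:**
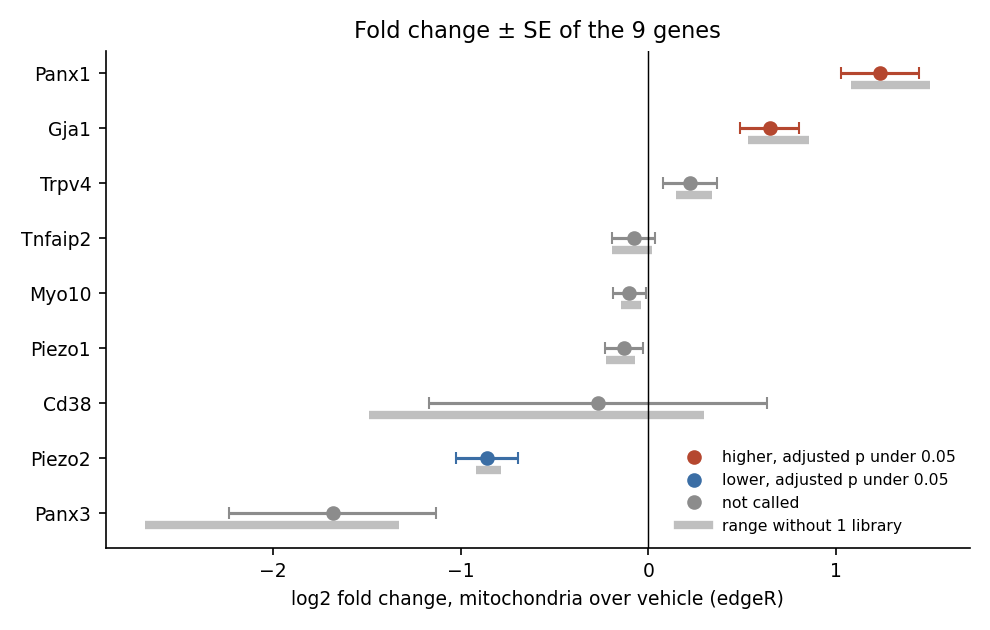
Log2 fold change of mitochondria over vehicle with its SE for the 9 genes, and in light grey the range of the estimate when 1 of the 6 libraries is left out. Panx1, Gja1 and Piezo2 keep their side of 0 throughout, as do Panx3, Trpv4, Piezo1 and Myo10, while the ranges of Tnfaip2 and Cd38 cross it.

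Tnfaip2 (ENSMUSG00000021281, chromosome 12, 111442469 to 111455018, plus strand), the M-Sec gene, was at 130, 97.6 and 111 CPM with mitochondria and 126, 116 and 116 CPM with vehicle. Mitochondria libraries lay on both sides of the vehicle libraries. The log2 fold change was -0.08 ± 0.12 (adjusted p = 0.70, edgeR; 95% confidence interval -0.34 to 0.19). It was 0.02 without mitochondria replicate 2 (adjusted p = 0.94, edgeR), and -0.26 (adjusted p = 0.046) with the GC trend removed.

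Myo10 (ENSMUSG00000022272, chromosome 15, 25622525 to 25813673, plus strand) had the narrowest error of the 9. Its values were 209, 222 and 221 CPM with mitochondria and 220, 227 and 252 CPM with vehicle, and the groups overlapped. The log2 fold change was -0.10 ± 0.09 (adjusted p = 0.48, edgeR), with a 95% confidence interval of -0.30 to 0.10, and no alternative gave a call.

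Of 43 other nanotube and filopodium genes tested, 2 rose and 6 fell, with a median log2 fold change of -0.11. The share called was 18.6%, near the 14.8% of all genes tested. Eps8, which caps and bundles actin filaments, fell to 45.2 ± 6.56 CPM with mitochondria, against 73.9 ± 3.96 CPM with vehicle (log2 -0.71 ± 0.12, adjusted p = 0.010, edgeR). The formin Diaph2 fell to 6.07 ± 1.86 CPM, against 13.4 ± 2.01 CPM with vehicle (-1.14 ± 0.23, adjusted p = 0.017). Kif5b, the kinesin heavy chain that moves mitochondria along microtubules, fell to 93.3 ± 34.6 CPM, against 200 ± 5.80 CPM with vehicle (-1.10 ± 0.25, adjusted p = 0.022). Baiap2, a membrane-bending protein of filopodia, fell as well (-0.50 ± 0.11, adjusted p = 0.024). Ezr, which ties actin to the membrane, rose to 92.5 ± 9.78 CPM, against 60.5 ± 8.70 CPM with vehicle (0.61 ± 0.13, adjusted p = 0.018). Dropping single libraries lost the calls of Eps8, Diaph2, Kif5b, Baiap2 and Ezr in 1, 2, 3, 4 and 3 of 6 fits.

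The exocyst, the tethering complex that works with M-Sec, was called in both directions. Of 9 subunits tested, Exoc7 rose (0.36 ± 0.10, adjusted p = 0.037, edgeR) and Exoc5 and Exoc4 fell (-0.80 ± 0.19 and -0.33 ± 0.08, adjusted p = 0.025 and 0.032). Over all genes tested 14.8% were called. When single libraries were dropped, the calls of Exoc4, Exoc7 and Exoc5 were lost in 5, 4 and 3 of 6 fits. With the GC trend removed Exoc5 changed by -0.13 (adjusted p = 0.29) and Exoc7 by 0.20 (adjusted p = 0.070). The mitochondrial transport adaptors Rhot1, Rhot2, Trak1 and Trak2 were not called, with estimates of -0.30 to -0.01. The most abundant genes of the list were Arpc2, of the actin-branching complex (0.05 ± 0.09, adjusted p = 0.76), and Cdc42, a small GTPase of filopodia (-0.15 ± 0.11, adjusted p = 0.40), and neither was called.

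Cd38 (ENSMUSG00000029084, chromosome 5, 43868553 to 43912375, plus strand) was too rare for its change to be measured. Deposited counts were 4, 103 and 38 in mitochondria replicates 1, 2 and 3, or about 1, 25.75 and 9.5 fragments. They were 34, 49 and 103 in vehicle replicates 1, 2 and 3, or about 8.5, 12.25 and 25.75 fragments. The lowest and the joint highest count were both in the mitochondria group, and the groups overlapped completely. The log2 fold change was -0.27 ± 0.90 (adjusted p = 0.88, edgeR), with a 95% confidence interval of -2.32 to 1.78. It was 0.28 without mitochondria replicate 1 and 0.30 without vehicle replicate 3. Cd38 is also a leukocyte gene. B, T and plasma cell markers summed to 0.0645 to 0.496 CPM with mitochondria and 0.00 to 0.178 CPM with vehicle, and all 6 in the table were under 0.1 FPKM, as was the pan-leukocyte gene Ptprc. Ptprc was the 1 gene under 0.1 FPKM among the 13 macrophage markers, whose median was 0.611 FPKM. Lyz2 (24.2 FPKM) and Cd14 (14.9 FPKM) of that list were much higher, and its part in the Cd38 values was not tested.

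Of 22 genes tested that make or use NAD and cyclic ADP-ribose, 4 rose and 1 fell (median log2 fold change 0.19). The share called was 22.7%, against 14.8% of all genes tested. Trpm2, a calcium channel opened by ADP-ribose, rose to 10.4 ± 3.20 CPM with mitochondria, against 4.27 ± 1.23 CPM with vehicle (log2 1.28 ± 0.29, adjusted p = 0.022, edgeR). Parp10, an ADP-ribosyltransferase, rose to 16.5 ± 3.44 CPM, against 9.53 ± 1.37 CPM with vehicle (0.79 ± 0.18, adjusted p = 0.024). Slc25a51, the carrier that brings NAD into mitochondria, rose to 126 ± 8.37 CPM, against 98.2 ± 7.63 CPM with vehicle (0.36 ± 0.10, adjusted p = 0.040), and Nmnat3, a mitochondrial NAD-making enzyme, rose by 0.66 ± 0.18 (adjusted p = 0.040). The NAD-dependent deacetylase Sirt1 fell (-0.95 ± 0.25, adjusted p = 0.036). Nadk and Nampt, the most abundant of the list, changed by 0.10 ± 0.09 and -0.19 ± 0.16 (adjusted p = 0.49 and 0.48), and Nampt by 0.31 with the GC trend removed (adjusted p = 0.039).

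**Figure D5:**
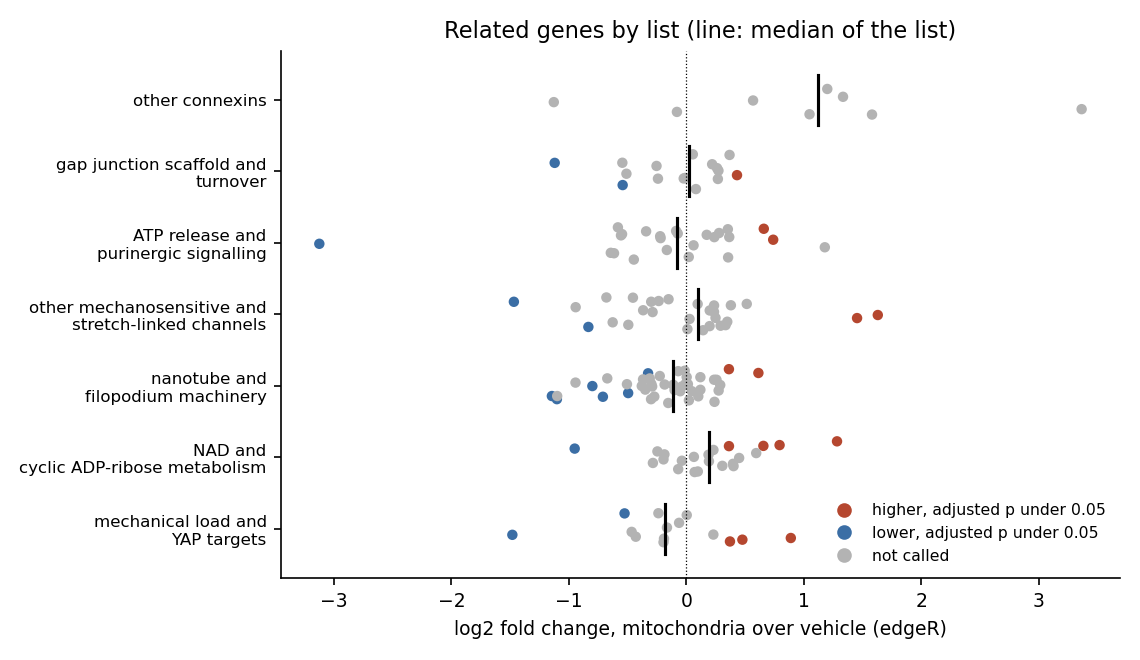
Log2 fold change of mitochondria over vehicle for each tested gene of the 7 lists of related genes, coloured by call, with a line at the median of each list. The lists hold called genes on both sides of 0 except the connexins, where none was called. The connexin median was 1.12, a value that depended on the treatment of low counts.

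Over the 7 lists together, 14 genes rose and 14 fell of 156 tested (17.9% called, against 14.8% of all genes), with a median log2 fold change of -0.01. The number of these calls varied with the library left out. So did the number over all genes tested (130 to 1086 higher and 310 to 1694 lower). Leaving out vehicle replicate 3 gave 0 list genes higher and 2 lower, and leaving out vehicle replicate 2 gave 1 and 3. The counts were 4 and 6 once mitochondria replicate 3 was dropped, 16 and 22 once mitochondria replicate 1 was, and 15 and 11 once vehicle replicate 1 was. With the GC trend removed there were 20 higher and 22 lower.

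The genes whose log2 CPM followed each called gene most closely over the 6 libraries were named by the highest Pearson r, as a description. They included Pkp1 and Cd47 for Gja1 (r = 0.997 for each), and they were Cd9, Dusp6 and P4ha1 for Panx1 (r = 0.998 for each) and Zfp677, Mbd4 and 4632427E13Rik for Piezo2 (r = 0.994, 0.994 and 0.993). With 6 points in 2 groups such values are common: r was over 0.95 with 290 genes for Gja1, 771 for Panx1 and 161 for Piezo2. Of these named genes 5 passed the edgeR test, against 14.8% of all genes tested. They were picked for following a called gene over the same libraries, so this count is no separate support. Pkp1, a plakophilin of desmosomes, rose by 1.12 on the log2 scale (adjusted p = 0.046), Dusp6, a phosphatase that restrains ERK signalling, by 0.59 (adjusted p = 0.022) and P4ha1, a collagen prolyl hydroxylase, by 0.49 (adjusted p = 0.013). Zfp677 changed by -1.06 (adjusted p = 0.023) and 4632427E13Rik by -1.60 (adjusted p = 0.019), while Cd47, Cd9 and Mbd4 did not pass (adjusted p = 0.080, 0.099 and 0.077).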

How the data were processed

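RNA was poly(A)-selected and sequenced as paired ends, per the labels' protocols. The authors deposited 1 table with an FPKM value (scaled by them for length and depth) and an estimated count (expected count, whole numbers, not normalised) per gene and library. HISAT2 2.0, StringTie 1.3.0, Bowtie 0.12.2 and build mm8 are listed, with no role, per the submitters' processing notes. Of 28812 gene identifiers 28732 were found in GENCODE M21, and 90.2% of these had the same start and end, so coordinates are given as GRCm38. Values of 4 were 2.66 times as frequent as those of 3 and 5, hence 4 counts per fragment.

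Counts were filtered with filterByExpr (minimum count 10), scaled by TMM and tested by a quasi-likelihood fit of edgeR 4.0.16 (R 4.3.3) on group alone with all 6 libraries, two-sided, with Benjamini-Hochberg adjustment over 17290 genes, threshold 0.05. The SE was derived from the F statistic and is not separate from the p-value; confidence intervals use it with the fit's 8.68 degrees of freedom. No row lacked a gene name. CPM use TMM factors. Ratios of FPKM were compared by an exact permutation test. The edgeR step was tested on simulated data. Alternatives used DESeq2 1.42.0, limma 3.58.1 on log2(FPKM + 0.1) or + 1, other scalings and filters, counts divided by 4, GC offsets (a lowess trend of log2 CPM on the GC content of the longest transcript, 99.9% of tested genes), a replicate block and each library left out. The 9 genes and the lists were chosen with earlier results of these data known. The rule names, per list, up to 4 called genes by adjusted p and the 2 with the highest FPKM; Baiap2, Exoc4, Exoc5, Exoc7, Nmnat3, the P2X and adenosine receptors, the mitochondrial adaptors and the marker genes were named after their values were seen. Some genes that the rule or the lists hold are not reported here.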

Additional observations from a re-analysis of the deposited data

How the results depend on the processing

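The direction of Gja1, Panx1, Panx3, Piezo1, Piezo2, Trpv4 and Myo10 was kept under all 20 alternatives, and Trpv4 and Myo10 were never called. Panx3 passed with DESeq2 (-1.70), counts divided by 4 (-1.69), limma at a pseudocount of 0.1 (-1.48) or 1 (-0.46), and the replicate block with the GC offset (-1.80). Gja1 did not pass in edgeR with no filter (0.65, adjusted p = 0.085), limma with no filter (0.60, adjusted p = 0.10) or limma after quantile normalisation (0.51, adjusted p = 0.069). Panx1 did not pass in limma with no filter (1.17, adjusted p = 0.054). Piezo2 did not pass in limma at 0.1 (-0.70), at 1 (-0.22), with no filter (-0.70) or after quantile normalisation (-0.50). With the GC offset Piezo1 (-0.33) and Tnfaip2 (-0.26) passed and Cd38 was 0.0425, and with the GC offset and the block together Piezo1 passed (-0.33) and Tnfaip2 did not (-0.26, adjusted p = 0.059). With the block alone Piezo1 did not pass (-0.13, adjusted p = 0.40). The cause of these changes was not tested.

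With 1 library left out, log2 fold changes were 0.53 to 0.86 for Gja1, 1.08 to 1.51 for Panx1, -2.68 to -1.33 for Panx3, -0.92 to -0.79 for Piezo2, -0.23 to -0.07 for Piezo1, -0.19 to 0.02 for Tnfaip2 and -1.49 to 0.30 for Cd38. Tnfaip2 was 0.0176 without mitochondria replicate 2, and Cd38 was 0.28 without mitochondria replicate 1 and 0.30 without vehicle replicate 3. These fits called 130 to 1086 genes higher and 310 to 1694 lower, against 1099 and 1463 with all libraries, and 0 to 16 list genes higher and 2 to 22 lower. Without a filter 357 and 507 genes were called in edgeR and 175 and 312 in limma, and the GC offset called 1693 higher. Of the list genes, DESeq2, the GC offset and the block with the GC offset each called 22 lower. Without a filter 3 were called higher and 4 lower in edgeR and 1 and 4 in limma, and limma at 0.1 called 9 higher.

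Libraries with the same replicate number correlated weakly in their deviations (r = 0.0752, 0.0247 and 0.00987), and mitochondria replicates 2 and 3 did not correlate best with their own number, so the numbers were not taken as pairs. With a replicate block Gja1 was 0.67 (adjusted p = 0.046), Panx1 1.27 (0.0062), Piezo2 -0.87 (0.024) and Panx3 -1.999 (0.059), all in edgeR. The median log2 fold change of all genes was -0.06 to 0.06 under the other scalings, against 0.00 with TMM. Depth limits Cd38, Panx3 and P2ry1, which rest on few fragments.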
